A study of Mus musculus with 8 samples.

Results

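The genes described here are the sestrins, the receptor gene Eda2r and further targets and partners of the tumour suppressor p53, measured in mouse soleus. The 10 genes (Sesn1, Sesn2, Sesn3, Eda2r, Cdkn1a, Gadd45a, Mdm2, Trp53, Trp53inp1 and Ccng1) were chosen by name, with results of these arrays already known. Sesn1 and Eda2r were selected on their measured values, since both were known to be higher in Ts65Dn muscle, so their difference between the groups is given as a description and is not tested. For each gene the probe set annotated to exactly 1 gene symbol was used, and where a gene had several, the brightest on average over the 8 arrays. By this rule 8 of the 10 genes were measured, among 19938 genes in all. The probe set of Cdkn1a is annotated to several genes, and Trp53 was not matched to a probe set with a single symbol, so both were not analysed here.

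Soleus, a calf muscle made largely of slow fibres, was taken in the basal state from male mice aged 5 months. One group held 4 Ts65Dn mice, a segmental trisomy model of Down syndrome that carries an extra marker chromosome with the distal part of mouse chromosome 16 and the proximal part of chromosome 17. The other held 4 wild-type (WT) mice of the same colony, kept on a mixed B6 and C3H background (B6EiC3SnF1/J). Each mouse gave 1 array, so that the spread between arrays includes that between animals. The trisomy is inherited and was not restricted to muscle. The 8 measured genes lie on chromosomes 4, 6, 9, 10, 11 and X, and none lies on a chromosome that contributes to the marker chromosome.

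The p53 protein is a transcription factor that is kept low by Mdm2, an E3 ubiquitin ligase whose own gene p53 switches on, which closes a negative feedback loop. When DNA is damaged or cells are stressed, p53 is freed and activates genes for cell cycle arrest, DNA repair, apoptosis and metabolism. Sestrins are stress-inducible proteins that restrain the growth kinase complex mTORC1 through the GATOR complexes and that interact with AMPK, and Sesn1 and Sesn2 are known p53 targets, whereas Sesn3 is better known as a target of FoxO factors. Eda2r encodes the receptor for the A2 form of ectodysplasin, also called XEDAR, which is a p53 target and is known in skeletal muscle for its link to muscle wasting.

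The values are log2 levels made by the authors with RMA, on which a difference of 1 is a doubling. The 2 groups of arrays differed in the spread of their values: the interquartile range was 3.01 to 3.12 in Ts65Dn and 2.62 to 2.93 in WT, with WT arrays 2 (2.74) and 3 (2.62) the narrowest. The median log2 difference between the groups (Ts65Dn minus WT) therefore moved with level, from -0.22 over 11299 genes at a mean of 5 or less to 0.09 over 5518 genes at 5 to 7, 0.31 over 2135 genes at 7 to 9 and 0.10 over 986 genes above 9. Level-matched values, in which the median deviation of the 100 genes closest in mean level was removed array by array, are given beside the deposited ones for the 8 genes and where they move a named value much. With limma over all genes, 462 genes (2.32%) were higher and 587 (2.94%) lower in Ts65Dn at an adjusted p under 0.05, against 951 and 57 when each array was centred on its median. On the deposited values the smallest limma adjusted p over all genes was 0.0449, so every call lay close to the threshold. On level-matched values 75 genes (0.376%) were higher and 18 (0.0903%) lower. Markers of muscle fibres were in place in both groups: the summed level of 8 genes, among them Myh7, Tnnt1 and Acta1, ran from 14.61 to 14.76 in Ts65Dn and from 14.56 to 14.69 in WT on the log2 scale.

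Sesn1, Eda2r and Mdm2 were higher in every Ts65Dn muscle than in any WT muscle, and the other 5 genes overlapped between the groups. Mdm2 rose by 0.78 on the log2 scale, whereas Sesn2, Sesn3, Gadd45a, Trp53inp1 and Ccng1 did not pass the test. Of the 6 genes not chosen on their values, 1 passed as higher and 0 as lower by limma, beside 2.32% and 2.94% of all genes, and 3 had an unadjusted p under 0.05. Over all genes, Ts65Dn lay entirely above WT in 6.81% and entirely below in 15.9%. The median log2 difference of these 6 genes was -0.05, against -0.10 over all genes, and on level-matched values -0.08 against 0.0012. These are whole-muscle RNA values, in which fewer cells of a type and less RNA per cell cannot be told apart.

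**Figure D1:**
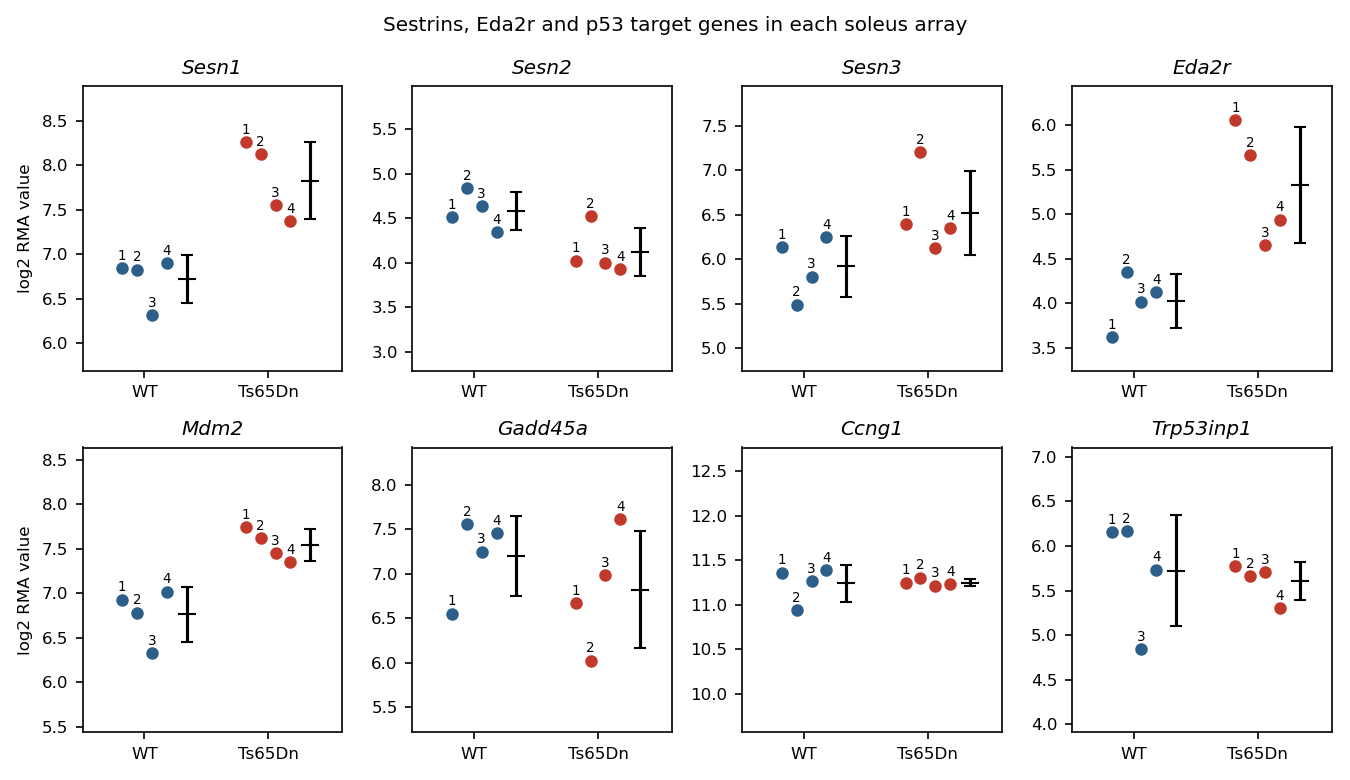
Log2 level of each of the 8 measured genes in the 4 Ts65Dn and 4 WT arrays, as deposited; each numbered point is 1 mouse and the bars are the group mean ± SD. Sesn1, Eda2r and Mdm2 have all Ts65Dn points above all WT points, while Gadd45a, Trp53inp1, Sesn2, Sesn3 and Ccng1 overlap.

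Sesn1, a p53-activated sestrin, read 8.26, 8.12, 7.55 and 7.37 in Ts65Dn mice 1 to 4. In WT mice 1 to 4 it read 6.84, 6.82, 6.32 and 6.90. The lowest Ts65Dn value lay above the highest WT value, and WT mouse 3 was well below the other WT mice. The means were 7.83 ± 0.43 and 6.72 ± 0.27 (SD, n = 4 each), a log2 difference of 1.10 with a standard error of 0.22 and a 95% interval of 0.63 to 1.58. After level matching the difference was 0.78, with Ts65Dn values of 8.05, 7.98, 7.39 and 7.18 and WT values of 6.79, 7.09, 6.70 and 6.90. The groups did not overlap on that scale either, with Ts65Dn mouse 4 closest to the WT range.

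Sesn2, the sestrin induced by the integrated stress response as well as by p53, was dim, with 41.5% of genes dimmer still. It read 4.02, 4.53, 4.003 and 3.93 in Ts65Dn mice 1 to 4 and 4.51, 4.84, 4.64 and 4.34 in WT mice 1 to 4. Its difference was thus opposite in sign to that of Sesn1, and only Ts65Dn mouse 2 reached into the WT range. The difference was -0.46 (95% interval -0.82 to -0.10), with an unadjusted p of 0.0167 and an adjusted p of 0.0842 by limma. After level matching it was -0.18 (adjusted p = 0.514).

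Sesn3 read 6.39, 7.20, 6.12 and 6.35 in Ts65Dn mice 1 to 4 and 6.14, 5.49, 5.81 and 6.25 in WT mice 1 to 4. Ts65Dn mouse 2 was far above the rest, and Ts65Dn mouse 3 lay below WT mice 1 and 4. The log2 difference was 0.60 (95% interval 0.064 to 1.13, limma adjusted p = 0.112), and 0.41 after level matching (adjusted p = 0.329). Among the sestrins, then, Sesn1 alone had groups that did not overlap.

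Eda2r read 6.06, 5.66, 4.65 and 4.94 in Ts65Dn mice 1 to 4, and 3.62, 4.35, 4.02 and 4.12 in WT mice 1 to 4. Ts65Dn mice 1 and 2 were more than 1 log2 unit above every WT mouse, whereas Ts65Dn mouse 3 stood little above WT mouse 2. The means were 5.33 ± 0.65 and 4.03 ± 0.30 (SD, n = 4 each), and the log2 difference was 1.30 with a standard error of 0.29 and a 95% interval of 0.67 to 1.93. The gene lay in the lower part of the range, with 49.1% of genes dimmer, where the arrays of Ts65Dn read low as a whole. After level matching its difference was accordingly larger, 1.55, with Ts65Dn values of 6.20, 5.80, 4.74 and 5.14 and WT values of 3.63, 4.16, 3.73 and 4.13. The groups stayed apart.

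Most genes around this receptor did not show such a difference. Its ligand gene Eda, named here after its values were seen and one of the list that follows, was at 4.15 ± 0.06 in Ts65Dn and 4.30 ± 0.21 in WT (SD, n = 4 each), a log2 difference of -0.15 (limma adjusted p = 0.405) that was 0.13 after level matching. Of 13 measured genes of Eda2r signalling, a list of ligand, receptor, adaptor, kinase and NF-kappaB genes, 0 passed the test as higher and 1 as lower. A positive difference was seen in 3, and in 5 after level matching. At an unadjusted p under 0.05 (limma) there were 6, of which 1 was higher, the adaptor gene Traf6 at 0.53 (adjusted p = 0.0987). After level matching Traf6 was at 0.67 (adjusted p = 0.115). The gene that passed as lower was Relb, a subunit of the alternative NF-kappaB pathway, which decreased by 0.48 (4.03 ± 0.05 against 4.51 ± 0.06, SD, n = 4, limma adjusted p = 0.0456). Relb was dim, and after level matching its difference was -0.19 (adjusted p = 0.302). The median difference of the list was -0.15, close to that of all genes.

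Mdm2, the ubiquitin ligase that p53 both induces and is restrained by, read 7.75, 7.62, 7.45 and 7.35 in Ts65Dn mice 1 to 4. In WT mice 1 to 4 it read 6.93, 6.78, 6.33 and 7.02. The groups did not overlap, and WT mouse 3 was again the lowest. The means were 7.54 ± 0.18 and 6.77 ± 0.31 (SD, n = 4 each), a log2 difference of 0.78 with a standard error of 0.17 and a 95% interval of 0.41 to 1.14 (limma adjusted p = 0.0456). After level matching the difference was 0.52 with a standard error of 0.14 and no longer passed (adjusted p = 0.0972), although the values still did not overlap, at 7.62, 7.54, 7.32 and 7.14 against 6.91, 7.05, 6.59 and 6.98. The call was also lost on leaving out any 1 Ts65Dn mouse, WT mouse 2 or WT mouse 3, with adjusted p values from 0.077 to 0.115. In each of those settings 0 or 1 of all genes was called. The Mdm2 call was kept without WT mouse 1 (0.0326) or WT mouse 4 (0.0385). On leaving out any 1 mouse the difference of Mdm2 ran from 0.63 to 0.86. With level matching and WT mice 2 and 3 both left out, a setting chosen after the values were seen, the difference was 0.46 (adjusted p = 0.332).

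**Figure D2:**
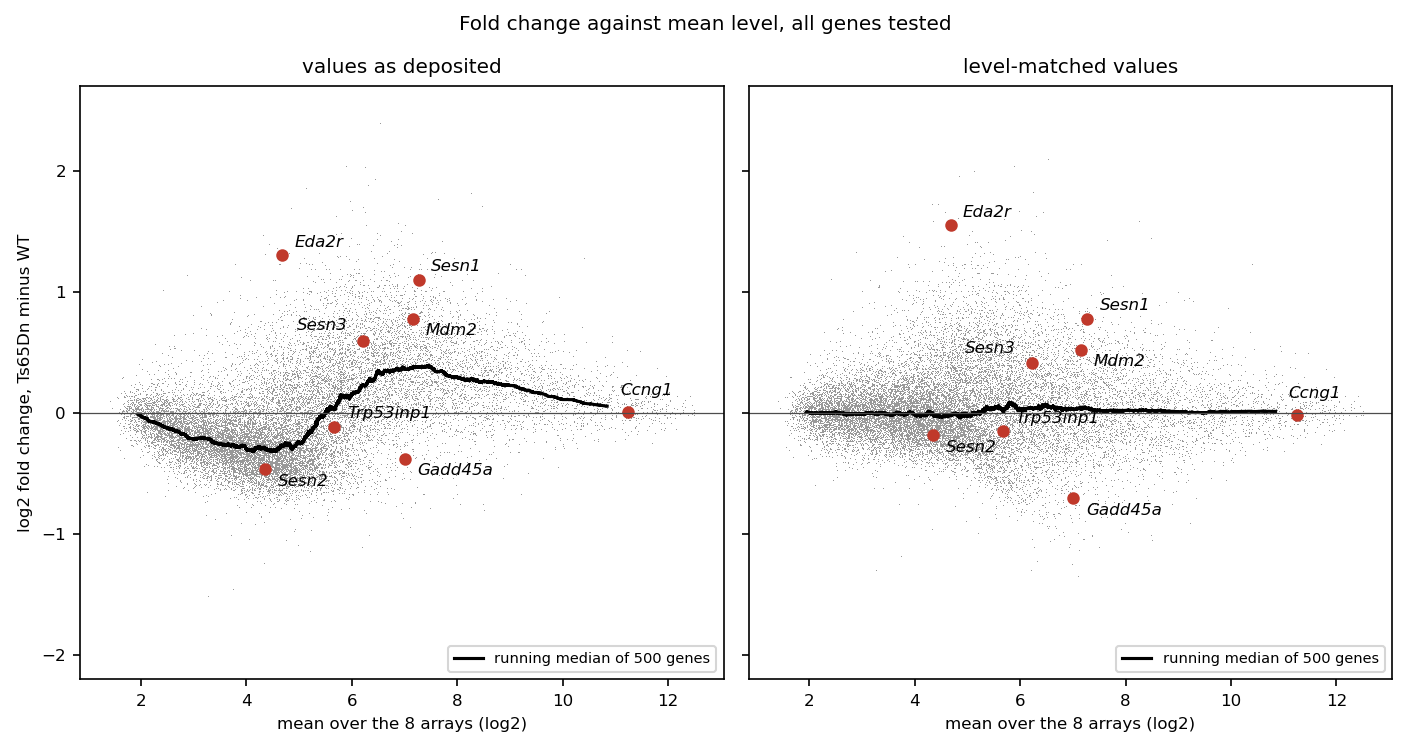
Log2 difference (Ts65Dn minus WT) against mean log2 level on the deposited (left) and level-matched (right) scale, for the 8 measured genes (red) among all 19938 genes (grey) with their running median (line). Sesn1 and Mdm2 sit in a range of levels whose own median is above 0, while Eda2r lies where it is below 0.

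Gadd45a, a growth arrest and DNA damage gene that muscle also raises after denervation, read 6.67, 6.02, 6.98 and 7.61 in Ts65Dn mice 1 to 4 and 6.55, 7.55, 7.25 and 7.45 in WT mice 1 to 4. The groups were interleaved: the highest value was Ts65Dn mouse 4 and the lowest Ts65Dn mouse 2. The log2 difference was -0.38 (95% interval -1.08 to 0.32, limma adjusted p = 0.397). After level matching it was -0.71 (adjusted p = 0.273). The deposited upper bound lies below the difference of Mdm2 (0.78), whose own 95% interval starts at 0.41. No test of that contrast between genes was run.

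Trp53inp1, a p53-induced nuclear protein with roles in apoptosis and autophagy, ran from 5.30 to 5.78 in Ts65Dn and from 4.84 to 6.17 in WT. The WT values enclosed all Ts65Dn values, with WT mouse 3 at the bottom. The log2 difference was -0.11 (95% interval -0.70 to 0.47, limma adjusted p = 0.775), or -0.15 after level matching (adjusted p = 0.783), and its sign turned to 0.09 with array median centring. Ccng1, cyclin G1, a p53 target that recruits phosphatase to Mdm2, read 11.25, 11.31, 11.22 and 11.23 in Ts65Dn and 11.36, 10.95, 11.27 and 11.39 in WT. All Ts65Dn values fell inside the WT range, and WT mouse 2 was lowest. The difference was 0.0093 (95% interval -0.27 to 0.29, adjusted p = 0.965), and -0.02 after level matching, so the sign depended on the scale. For Ccng1 the interval leaves out changes the size of that of Mdm2.

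The promoters of the genes described are shown because p53 binding sites are built from half-sites of 10 bases. Windows from 250 bases before to 50 bases after each annotated start were taken from RefSeq (GRCm38.p6), for 9 of the 10 genes (11 windows, those of Cdkn1a and Trp53 included). The canonical p53 half-site (its consensus of 10 letters, which reads the same on both strands and so was searched once) was found without mismatch in 6 of the 11 windows and in 2745 of 32851 windows of that length in the genome set (8.36%). With 1 mismatch allowed in the outer letters, 8 of the 11 windows hold it, those of Eda2r and Sesn3 included, and 39.6% of all windows do. The 6 windows with an exact match include ones of Cdkn1a and Trp53, which were not measured. The genes were chosen as targets or partners of p53, so their share beside that of all windows is only a description. Below, the half-sites are in capitals in windows of Sesn1 (the downstream of its 2 starts, chr10:41887189-41887488, plus strand), Mdm2 (chr10:117710709-117711008, minus strand), Ccng1 (chr11:40755237-40755536, minus strand) and Eda2r (chrX:97377160-97377459, minus strand, no match).
Sesn1: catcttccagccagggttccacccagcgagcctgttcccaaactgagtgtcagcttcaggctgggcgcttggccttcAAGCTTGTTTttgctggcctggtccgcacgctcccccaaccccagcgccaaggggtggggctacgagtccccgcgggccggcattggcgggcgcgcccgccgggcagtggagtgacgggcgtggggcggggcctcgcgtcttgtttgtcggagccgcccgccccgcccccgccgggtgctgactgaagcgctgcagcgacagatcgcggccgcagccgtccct
Mdm2: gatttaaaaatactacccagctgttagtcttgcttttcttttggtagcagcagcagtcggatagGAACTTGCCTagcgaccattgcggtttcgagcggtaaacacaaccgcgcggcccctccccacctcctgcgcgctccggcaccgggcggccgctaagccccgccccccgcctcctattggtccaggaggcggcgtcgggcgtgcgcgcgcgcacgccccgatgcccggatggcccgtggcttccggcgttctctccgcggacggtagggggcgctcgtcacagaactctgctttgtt
Ccng1: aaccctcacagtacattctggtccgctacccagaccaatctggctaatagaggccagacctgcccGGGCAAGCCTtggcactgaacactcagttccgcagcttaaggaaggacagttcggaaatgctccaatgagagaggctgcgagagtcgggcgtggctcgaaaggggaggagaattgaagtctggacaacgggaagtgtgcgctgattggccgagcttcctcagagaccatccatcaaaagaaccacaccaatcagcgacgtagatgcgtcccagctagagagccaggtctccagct
Eda2r: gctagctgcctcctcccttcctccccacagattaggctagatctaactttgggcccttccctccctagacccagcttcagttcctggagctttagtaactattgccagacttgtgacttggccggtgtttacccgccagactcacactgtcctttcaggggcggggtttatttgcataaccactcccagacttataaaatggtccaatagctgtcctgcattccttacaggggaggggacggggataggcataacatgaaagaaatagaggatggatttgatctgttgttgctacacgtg
The half-site starts 173 bases before the start of Sesn1 (AAGCTTGTTT), 186 before that of Mdm2 (GAACTTGCCT) and 185 before that of Ccng1 (GGGCAAGCCT). The window of Gadd45a also holds a half-site, 40 bases before its start. No exact match lay in the windows of Eda2r, Sesn2, Sesn3 or the upstream start of Sesn1. Such a match is a run of letters and only part of a binding site, and binding was not measured here. Sequence outside these windows was not searched. Whether the half-sites have a part in the differences between the groups was not tested.

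Few of the wider p53 targets were higher in Ts65Dn in the way of Sesn1 and Eda2r, both chosen for being higher, and Mdm2. Their counts on the deposited scale lay near the shares over all genes. Of 47 measured targets outside the 10 genes, 2 were higher (Phlda3 and Polh) and 1 lower (Trp73) by limma, beside 2.32% and 2.94% of all genes. At an unadjusted p under 0.05 (limma) there were 16, of which 5 were higher. Over all 19938 genes there were 6948, of which 2445 were higher. Of the 47, 22 had a positive difference, and the median was -0.11 against -0.10 over all genes. Ts65Dn values lay wholly above WT in 3 of the 47 and wholly below in 9, beside 6.81% and 15.9% of all genes. On level-matched values 0 of 47 passed (6 at an unadjusted p under 0.05), 24 were positive and the median was 0.03, while 1 lay wholly above and 2 wholly below, against 6.26% and 6.53% of all genes.

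**Figure D3:**
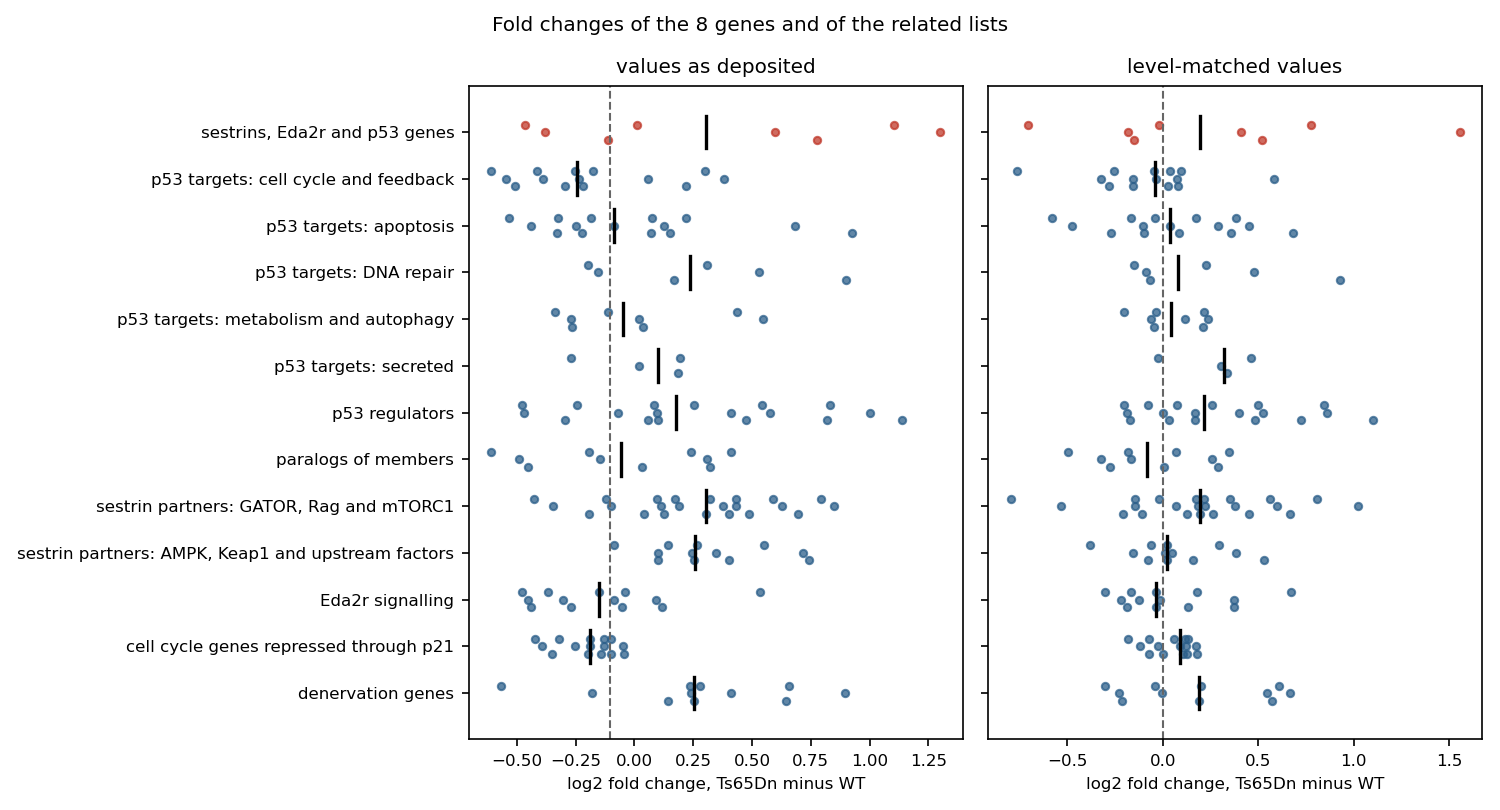
Log2 difference (Ts65Dn minus WT) of every measured gene of each list, with the list's median (black bar) and that of all genes (dashed line), on the deposited and the level-matched scale. On the deposited scale the cell cycle, apoptosis and metabolism targets have medians of -0.24, -0.09 and -0.05, the secreted and DNA repair targets 0.10 and 0.24, and the GATOR and mTORC1 list 0.31, against -0.10 over all genes.

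By role, the 14 targets in cell cycle and feedback had 4 positive differences, a median of -0.24 and 1 lower gene, Trp73, a p53 paralog, at 4.01 ± 0.16 against 4.62 ± 0.20 (SD, n = 4, log2 difference -0.61, limma adjusted p = 0.0456). Trp73 was dim, and level matching brought its difference to -0.32 (adjusted p = 0.136). Of 15 apoptosis targets, 7 were positive and 1 was higher, Phlda3, which encodes a p53-induced inhibitor of Akt. Phlda3 read 7.85, 7.67, 7.52 and 8.0 in Ts65Dn and 6.78, 7.05, 7.03 and 7.45 in WT. The groups did not overlap, although WT mouse 4 came close to Ts65Dn mouse 3. The difference was 0.68 (limma adjusted p = 0.0475), which level matching lowered to 0.29 (adjusted p = 0.378).

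Of the 6 DNA repair targets, 4 were positive and Polh, the translesion polymerase eta, was higher; the median was 0.24, and 0.08 after level matching. It read 6.36, 6.14, 5.85 and 5.81 in Ts65Dn and 5.11, 4.91, 4.81 and 5.73 in WT, again without overlap, and WT mouse 4 stood apart from the other WT mice. The log2 difference was 0.90 (limma adjusted p = 0.0466) and kept its size after level matching, at 0.93 (adjusted p = 0.068). Of the 8 metabolism and autophagy targets 0 passed (limma, 2 at an unadjusted p under 0.05), with Pank1, a pantothenate kinase, at 0.43 (adjusted p = 0.125) and Cpt1c, a carnitine palmitoyltransferase, at -0.34 (adjusted p = 0.117). Level matching brought these to 0.12 and -0.04. Of the 4 secreted targets 0 passed (0 at an unadjusted p under 0.05), with the cytokine gene Lif at -0.27 (adjusted p = 0.182) and Igfbp3, an IGF-binding protein, at 0.20 (adjusted p = 0.358). After level matching Lif was at -0.03 and Igfbp3 at 0.34, and the median of the 4 went from 0.10 to 0.32. As with Mdm2, the calls of Trp73, Phlda3 and Polh were lost on leaving out any 1 Ts65Dn mouse, WT mouse 2 or WT mouse 3. In each of those settings 0 or 1 of all genes was called.

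Among 18 regulators of p53, 0 passed the test (limma, 8 at an unadjusted p under 0.05) and 13 were positive, with a median of 0.18. On level-matched values 14 were positive, with a median of 0.21. Ep300, a p53 acetyltransferase, had the smallest p of them and a difference of 1.14 (adjusted p = 0.0579). Ppp1r13l, the inhibitory ASPP protein, was at -0.47 (adjusted p = 0.0581). After level matching the differences were 0.86 and -0.20. Of 10 paralogs of the described genes 1 was lower, which was Trp73 again, and 5 were positive. In 15 cell cycle genes that p53 represses through the kinase inhibitor p21, 0 passed (limma, 3 at an unadjusted p under 0.05). All 15 differences were negative on the deposited scale, with Mcm5 at -0.39 (adjusted p = 0.0671) and Mki67 at -0.35 (adjusted p = 0.0760). After level matching Mcm5 was at -0.12 and Mki67 at -0.07, 9 of 15 were positive and the median went from -0.19 to 0.09.

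The partners through which sestrins act, like the regulators of p53, were positive more often than not on both scales. Of 23 measured genes of the GATOR, Rag and mTORC1 machinery, 2 passed as higher and 0 as lower by limma, beside 2.32% and 2.94% of all genes. Of the 23, 18 were positive with a median of 0.31, where 39.2% of all genes were positive. On level-matched values 16 were positive with a median of 0.19, where 50.2% of all genes were. On that scale Ts65Dn lay wholly above WT in 4 of the 23, beside 6.26% of all genes. It lay wholly below in 1, Akt1s1 (-0.80), beside 6.53% of all genes. Nprl2, a subunit of GATOR1, which inhibits mTORC1, read 5.47, 5.72, 5.65 and 6.02 in Ts65Dn and 4.65, 5.32, 4.60 and 4.89 in WT. Every Ts65Dn value exceeded every WT value. The difference was 0.85 (limma adjusted p = 0.0456) and 1.02 after level matching (adjusted p = 0.0446), so Nprl2 was the 1 gene of the list called on both scales. Seh1l, a subunit of GATOR2, the complex that sestrins bind, rose by 0.79 (6.05 ± 0.18 against 5.25 ± 0.23, SD, n = 4, adjusted p = 0.0456) and had a level-matched difference of 0.81 (adjusted p = 0.0509).

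Nprl2 and Seh1l belong to complexes with opposed effects on mTORC1. Both calls, too, were lost on leaving out any 1 Ts65Dn mouse, WT mouse 2 or WT mouse 3, where 0 or 1 of all genes was called. Of the 12 genes for AMPK, Keap1 and factors upstream of sestrins 0 passed (limma, 3 at an unadjusted p under 0.05) and 11 were positive, 8 after level matching. The AMPK subunit genes Prkaa1 and Prkab2 had differences of 0.71 (adjusted p = 0.0777) and 0.40 (adjusted p = 0.0754), which level matching brought to 0.38 and 0.05. The median of these 12 went from 0.26 to 0.02 with level matching.

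Because Eda2r and Gadd45a are known from denervated and wasting muscle, 11 denervation genes were examined. Of these 0 passed (limma, 5 at an unadjusted p under 0.05, of which 4 were higher). A positive difference was seen in 9, and in 6 after level matching. Runx1 of this list is itself trisomic in Ts65Dn, and all its Ts65Dn values lay above all WT values. Its difference was 0.41 (limma adjusted p = 0.0690), and 0.66 after level matching (adjusted p = 0.0644). Musk, the receptor kinase of the neuromuscular junction, was at 0.89 (adjusted p = 0.0529) and Chrng, the embryonic acetylcholine receptor subunit, at -0.57 (adjusted p = 0.0634). After level matching these were 0.57 and -0.31.

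The genes most like Eda2r across the 8 arrays, by the mean absolute difference of their deviations from their own means, were Xirp1 (0.222), Pde10a (0.238), B4galt6 (0.248), Maoa (0.267) and, at rank 5 of 19937, Sesn1 (0.278). Those most like Sesn1 were Aqp7 (0.136), Med27 (0.160), Snx6 (0.161), Suox (0.166) and Zfp35 (0.167), with Mdm2 at rank 16 (0.194) and Eda2r at rank 253. Mdm2 stood at rank 128 for Eda2r. Sesn3 stood at ranks 430 for Eda2r and 1251 for Sesn1, within the closest 2.16% and 6.27% of genes. Ccng1 followed at 5893 and 6661 and Trp53inp1 at 12191 and 9587. By contrast Sesn2 stood far down at 17657 and 17821, and Gadd45a at 18898 and 19634. The ranks include the difference between the groups by which Sesn1 and Eda2r were chosen, and all genes share the same 8 arrays. They were taken on the deposited values only, on which the difference between the groups moves with level.

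Within Ts65Dn, mice 1 and 2 both read above mice 3 and 4 in 6 of the 8 genes: Sesn1, Sesn2, Sesn3, Eda2r, Mdm2 and Ccng1. This order was noticed after the values were seen. It was found in 16.5% of all genes, 26.8% of genes called higher and 9 of the 47 wider targets. After level matching it held in 6 of the 8, with Trp53inp1 in place of Ccng1, in 17.9% of all genes and in 29.4% of those called higher. In Sesn2 and Ccng1 the differences behind it were small, and the labels name nothing that sets these mice apart.

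**Figure D4:**
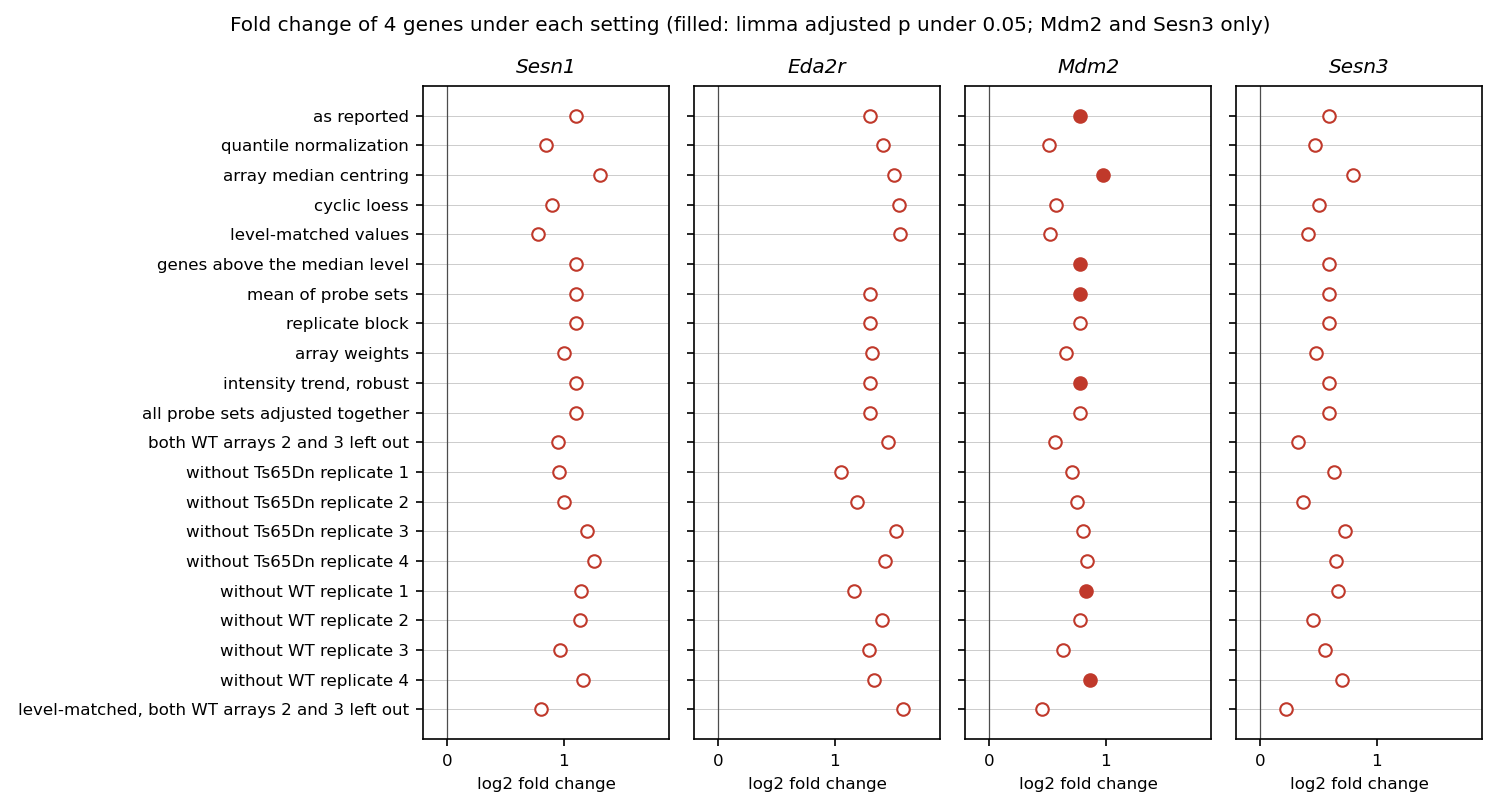
Log2 difference (Ts65Dn minus WT) of Sesn1, Eda2r, Mdm2 and Sesn3 as reported and under each processing alternative, filled for Mdm2 and Sesn3 where the limma adjusted p was under 0.05 (Eda2r has no point among genes above the median level). Sesn1 (0.78 to 1.31), Eda2r (1.06 to 1.59), Mdm2 (0.46 to 0.98) and Sesn3 (0.22 to 0.80) lie above 0 throughout, and 6 alternatives are filled for Mdm2 and 0 for Sesn3.

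Markers of other cell types moved between the groups beside these genes. The summed level of 6 of 6 endothelial markers ran from 8.71 to 9.09 in Ts65Dn and from 7.95 to 8.51 in WT, on the log2 scale, without overlap. Kdr (0.99, limma adjusted p = 0.0449) and Emcn (1.18, adjusted p = 0.0456) rose, with level-matched differences of 1.28 and 1.14. Tek, Pecam1 and Cdh5 were at 0.74, 0.58 and 0.54 and Vwf at -0.12, none of them past the test. Of 5 measured fibroblast and fibro-adipogenic markers Pdgfra rose (0.62, adjusted p = 0.0456), Dpt and Dcn were at 0.54 and 0.35, and the collagen genes Col1a1 and Col3a1 at -0.35 and -0.06, none of these 4 past the test. The summed level of all 5 overlapped, at 10.79 to 11.13 against 10.30 to 10.92. The sum of 3 of 5 Schwann cell markers was lower, 6.34 to 6.49 against 6.59 to 6.81, and overlapped after level matching (6.41 to 6.55 against 6.49 to 6.67). Sums of macrophage markers (8.20 to 8.64 against 7.91 to 8.39), satellite cell markers (7.96 to 8.20 against 8.10 to 8.28), adipocyte markers (10.04 to 10.41 against 10.04 to 10.39) and blood markers (6.48 to 7.53 against 6.93 to 7.36) overlapped. In such sums the brightest markers weigh most. Of the 8 macrophage markers 5 were positive, and 8 after level matching (median 0.20), where 50.2% of all genes were. On that scale Ts65Dn lay wholly above WT in 2 of them, beside 6.26% of all genes, and 0 passed. No marker is listed at 0 on this log2 scale, and the part of these cell types in the differences of Sesn1, Eda2r and Mdm2 was not tested.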

How the data were processed

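Total RNA of 8 soleus muscles (RNeasy) was made into biotinylated cDNA with the NuGEN Ovation Pico WTA system and hybridised to 1 array per mouse, per the labels' protocols. Per the submitters' processing notes, the authors ran RMA in Affymetrix Expression Console 1.1, a method that removes background, scales arrays to each other and combines the probes of a set. The range of the deposited values is that of a log2 scale, which is not stated in words, and genes were not centred. Which genome build and annotation the array design used is not given in the sources used here. RMA sets arrays to a common distribution over the probe sets it is run on, yet the deposited columns still differ in spread, which moves differences with level.

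Of 35556 probe sets, 21789 carry 1 gene symbol, 1621 several and 12146 none. Symbols were updated through RefSeq (GRCm38.p6) for 21698, and 91 kept their name. For 999 genes with several probe sets the brightest on average was used, which left 19938 genes. Each of the 8 measured genes described has 1 probe set. Number of arrays, 4 per group, limits the precision, and no detection call was used.

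The test was limma 3.58.1 in R 4.3.3 (lmFit, eBayes; two-sided, no covariate), and p-values were adjusted by Benjamini and Hochberg's method across the 19938 genes, with calls at 0.05. The fit was tested on simulated data. Tables and plots used Python 3.11.15, pandas 2.3.3 and matplotlib 3.10.9. The genes described and all lists were chosen with earlier results of these data known. Named genes are the 10 given by name and the genes called in each list (at most 4) or otherwise the 2 with the smallest p. The 5 most like Eda2r and Sesn1 are named too, leaving out predicted genes, olfactory and vomeronasal receptors and microRNAs. Eda, Runx1, Traf6 and Akt1s1 were named after their values were seen, and cell type markers are named beside this rule. Alternatives were other scalings between arrays, leaving out dim genes, averaging probe sets, a replicate block, array weights, another variance model, adjustment over all probe sets and leaving out arrays.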

Additional observations from a re-analysis of the deposited data

Results flagged for a closer look

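In WT mouse 3 the level of Sesn1 was 6.32, far below the next WT value of 6.82 and the highest of 6.90, and this gap made up most of the range of the 4 WT mice. WT mouse 3 also had the narrowest spread of values of all 8 arrays, and after level matching its Sesn1 value was 6.70, close to the other WT mice. In Ts65Dn mouse 2 the level of Sesn2 was 4.53, far above the other Ts65Dn values of 3.93 to 4.02. Both were marked because the gap exceeded Dixon's 95% critical value for 4 samples. Of 16 groups examined these 2 were marked, and chance alone marks about 1 in 20.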

How the results depend on the processing

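Over all genes 1049 were called and over the 47 wider targets 3. Over the 8 genes described there were 3, Sesn1 and Eda2r, both chosen for being higher, and Mdm2. Of the 6 genes not chosen on their values 1 was called. The counts over the 8 in this paragraph include Sesn1 and Eda2r where measured, so they are a description. With array median centring, the mean of probe sets and a robust intensity trend the count over all genes was 889 to 1008. It fell to 1 with another quantile normalization, 135 with cyclic loess, 93 with level matching, 436 among genes above the median level, 236 with array weights, 0 with all probe sets adjusted together, and 1 without WT arrays 2 and 3, on either scale. In these settings 0 of the 8 and 0 of the 47 were called, except among genes above the median level, with 2 and 1. At an unadjusted p under 0.05 there were 3 to 5 of the 8 and 2 to 19 of the 47 in every setting. Leaving out 1 array gave 0 to 2865 calls over all genes, 0 to 3 over the 8 and 0 to 4 over the 47, with calls among the 8 only without WT mouse 1 or WT mouse 4. Same-numbered mice were not paired by the labels, and their deviations correlated at 0.0117 to 0.0913, with 2 of 4 closest to their own number. A replicate block gave 0 calls over all genes, the 8 and the 47, with a smallest adjusted p of 0.053. The 3 genes without overlap stayed 3 or 4, except 2 among genes above the median level, where Eda2r was filtered out.

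The median of the wider targets (-0.11) was -0.0334 with quantile normalization, 0.0893 with centring, 0.0378 with cyclic loess, 0.0275 with level matching, 0.0590 above the median level and -0.0381 with level matching and WT arrays 2 and 3 left out. Ccng1 turned to -0.0745 with cyclic loess, -0.0189 with level matching, -0.0368 with array weights, -0.127 without WT arrays 2 and 3 and -0.0823 with level matching as well, and ran from -0.0896 to 0.0595 on leaving out 1 array. Trp53inp1 turned to 0.0889 with centring and ran from -0.407 to 0.0347 on leaving out 1 array. Cpt1c turned to 0.0126 with level matching and both WT arrays left out. Where a scaling changed a call, the cause was not tested.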
